A study of Mus musculus with 8 samples.

Results

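The genes of the Kv4 A-type potassium channel complex were compared between wild-type mice (WT, 4 samples) and their littermates with both Scn2a copies gene-trapped, labelled Homozygous Scn2agt/gt (HOM, 4 samples). The 9 genes were taken by name from the 54446 gene rows of the count table: the pore subunit genes Kcnd1, Kcnd2 and Kcnd3, the Kv channel-interacting protein (KChIP) genes Kcnip1, Kcnip2, Kcnip3 and Kcnip4, and the dipeptidyl peptidase-like genes Dpp6 and Dpp10. All 9 passed the filter on low counts and are among the 17395 genes tested. Both groups were bred from heterozygous pairs, their strain is labelled C75BL6, and the gene-trap allele is the only stated difference between them. The trap cassette sits in the gene of the neuronal sodium channel NaV1.2 and cuts its transcript short, and as a germline allele it is present in all cells. The series title speaks of adult mice, and no age, sex or brain region is stated for single samples. Whether each sample is a mouse of its own is not stated, so p-values here reflect only the spread between samples, which may be technical.

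Kv4 channels open at membrane potentials below the firing threshold and inactivate quickly, and this transient A-type current delays firing and damps signals in dendrites. The pore is built from KCND proteins. KChIPs are EF-hand calcium-binding proteins that attach to the channel inside the cell and raise its number at the surface, and DPP6 and DPP10 are membrane-spanning relatives of dipeptidyl peptidases without enzyme activity that speed the channel's opening and inactivation. KChIP3 is also known as calsenilin and as the transcriptional repressor DREAM.

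Total reads per library lay between 27993412 and 37538988, and the 9 genes held from 422 reads (Kcnd1 in WT replicate 3) to 16783 reads (Kcnip4 in HOM replicate 1) per library. Scn2a, the trapped gene, stood at 435 ± 51.6 CPM (read counts scaled to the TMM-adjusted library size) in WT and 128 ± 15.1 CPM in HOM (SD, n = 4), with an edgeR adjusted p of 1.16e-05 at a log2 fold change of -1.77. The labels call the cell type neuron, but the samples also held glial transcripts: the summed level of 6 astrocyte markers was 4185 to 4500.4 CPM and that of 5 oligodendrocyte markers 3410 to 5150 CPM over the WT libraries, beside 2840 to 3782 CPM for 8 markers of excitatory cortical neurons. In HOM these sums were 3236 to 4103, 2942 to 3617 and 2777 to 3340 CPM. Summed astrocyte, interneuron, hippocampal and endothelial markers were lower in every HOM library than in any WT library. Cerebellar markers were higher (0.659 to 0.967 CPM in WT, 0.984 to 10.5 in HOM), and the sums of the other lists overlapped. Fewer cells of a type and less RNA per cell cannot be told apart in such samples. HOM replicate 4 held 2 reads of 4 Y-linked genes and the other libraries 4452 to 5984. Choroid plexus markers differed too, with a mean log2 CPM over 12 markers that was 3.16 ± 1.24 in WT but 1.05 ± 0.817 for HOM (SD, n = 4). Single libraries stood apart in such markers. WT replicate 4 had summed levels of 2893 CPM for choroid plexus (455 to 898 in the other WT libraries), 138 CPM for 5 thalamic markers (58.0 to 79.8 in all other libraries) and 5150 CPM for oligodendrocytes (2942 to 3887). HOM replicate 1 had 10.5 CPM for 2 cerebellar markers, against 0.659 to 1.46 in the other libraries. The cerebellar genes Pcp2 and Cbln1 stood at 0 in every library and so do not tell libraries apart. Whether the counting described below gave these zeros was not tested.

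The table appears to count reads over whole gene bodies, introns included, with reads shared between genes dropped: of 1280 coding genes that lie wholly within another gene, 1261 stood at 0 in every library. So did all 55 annotated genes that lie inside 1 of the 9 Kv4 complex genes. Among them are Kcnmb1, a calcium-activated potassium channel subunit gene inside Kcnip1, and Speer4b inside Dpp6, both on the strand opposite to the member. The counting thus appears to ignore strand, and the level of a member may hold antisense reads. Of the 3 genes that overlap a member only in part, 5730480H06Rik at Kcnip4 held 2141 reads over the 8 libraries, 4930469K13Rik at Kcnip1 89 reads and Kcnd3os at Kcnd3 2060 reads. The level of a long gene is thus likely to hold a large part of intron reads, and span is given for each gene. Shared sequence took 10.4% of the span of Kcnip1, 8.14% of that of Kcnip4 and at most 2.96% of that of the other members.

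The 9 genes differed little between genotypes, and none passed the test (quasi-likelihood F test of edgeR, p adjusted over all genes by the Benjamini-Hochberg method, threshold 0.05). Of all 17395 genes 5.4% passed, 2.47% higher and 2.94% lower in HOM. With the replicate number as a block 0 of the 9 passed, against 2.09% of all genes. DESeq2 also called 0 of the 9, against 11.7% of the genes it gave an adjusted p. At an unadjusted p under 0.05 in edgeR there were 3, Kcnip1, Kcnip2 and Kcnip3, against 22.9% of all genes. The estimates were small, and 8 of the 9 lay above 0, as did 50.2% of all genes; without WT replicate 2 there were 7, Dpp10 being then at -0.00113. The 95% intervals reached from 0.796-fold (the lower end for Kcnip3) to 1.31-fold (the upper end for Kcnip2) for all members but Kcnip4, whose upper end was 1.63-fold.

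**Figure D1:**
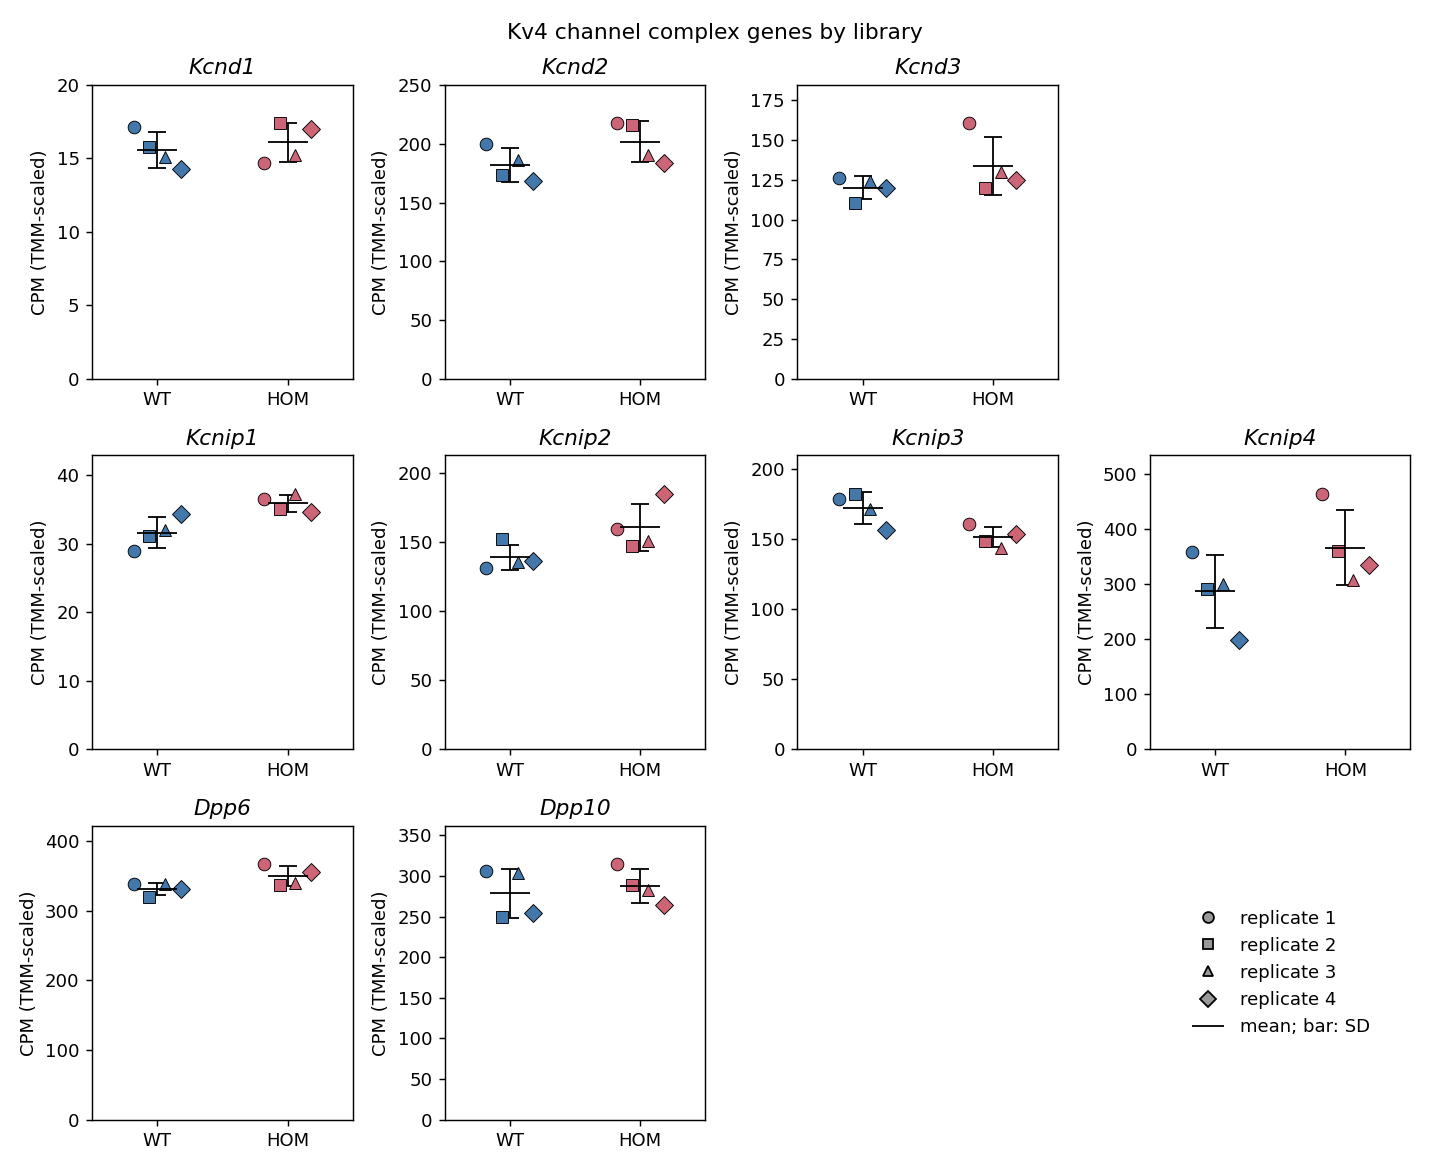
TMM-scaled CPM (y axis, from 0) of each Kv4 complex gene in the 4 WT (blue) and 4 HOM (red) libraries, with marker shapes for the replicate number, horizontal lines for means and bars for SD. The genotypes separate at Kcnip1 alone, by a narrow margin (34.4 against 34.7 CPM), and Kcnip4 shows the widest spread, from 198 to 464 CPM.

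Kcnd2, which encodes Kv4.2, the main dendritic A-type subunit of pyramidal neurons, spans 514 kb on the plus strand of chromosome 6 (ENSMUSG00000060882, chr6:21215503-21729805, GRCm38), and 1.00% of that span is exon. Its level was 199.9, 173, 187 and 168 CPM in the WT libraries, in the order of replicates 1 to 4 as in all such sentences, and 218, 216, 190.3 and 183 CPM in the HOM libraries. HOM replicates 1 and 2 stood above every WT library, and the other HOM libraries lay inside the WT range. The log2 fold change was 0.15 (SE 0.08, edgeR adjusted p = 0.279), an interval of 0.985- to 1.2496-fold.

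Kcnd3, which encodes Kv4.3, a subunit of interneurons as well as of other cells, spans 222 kb on chromosome 3 (ENSMUSG00000040896, chr3:105452330-105674002). It stood at 126, 110.5, 124 and 119.7 CPM in WT and at 161, 119.9, 129.9 and 125 CPM in HOM. The HOM mean of 134 CPM, against 120.2 in WT, rested mostly on HOM replicate 1, and the log2 fold change (0.16, SE 0.09, adjusted p = 0.323, edgeR) was 0.06 without that library, the one with the higher cerebellar markers, whose part was not tested. Kcnd1, the X-linked gene of Kv4.1, spans 15.992 kb (ENSMUSG00000009731, chrX:7822289-7838280) and was the lowest of the 9 in CPM. Its libraries read 17.2, 15.8, 15.1 and 14.3 CPM in WT and 14.7, 17.4, 15.3 and 17.03 CPM in HOM, with full overlap (log2 fold change 0.04, SE 0.09).

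The shares of the 3 pore genes overlapped between the groups. Of the CPM summed over the 3 Kcnd genes, Kcnd2 took 57.2% ± 1.13 in WT and 57.4% ± 2.57 in HOM, Kcnd3 37.9% ± 1.32 and 37.98% ± 2.93, and Kcnd1 4.91% ± 0.284 and 4.61% ± 0.648 (SD, n = 4). These shares are of reads and carry the genes' unequal lengths.

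The KChIP genes held the members of smallest p, and they differed in sign. Kcnip3 (ENSMUSG00000079056, chr2:127456498-127522094, minus strand, 65.6 kb) stood at 178, 182, 172 and 157 CPM in WT and at 161, 149, 143 and 153 CPM in HOM. All HOM libraries but replicate 1 lay below the lowest WT library, replicate 4. The log2 fold change was -0.19 (SE 0.07, edgeR adjusted p = 0.120), an interval of 0.796- to 0.972-fold before adjustment. Kcnip3 is on the same chromosome as Scn2a, 61.7 Mb away.

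Kcnip2, whose product KChIP2 partners Kv4 channels in brain and heart, is one of the shorter members (ENSMUSG00000025221, chr19:45791839-45816061, minus strand, 24.2 kb). It stood at 131, 152, 136 and 136 CPM in WT and at 159.5, 147, 150.2 and 185 CPM in HOM. WT replicate 2 lay above HOM replicates 2 and 3, so the groups overlapped. The log2 fold change was 0.21 (SE 0.08, edgeR adjusted p = 0.147), an interval of 1.02- to 1.31-fold before adjustment. It was 0.15 without HOM replicate 4, the highest library here and the one with almost no Y-linked reads.

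These 2 genes differ in sign, and for each the window at its most upstream start is shown, the only RefSeq window of Kcnip2 and 1 of 3 of Kcnip3. It runs from 250 bases before the start to 50 after it (RefSeq, GRCm38.p6, minus strand, written 5′ to 3′). The windows were searched on both strands for the cAMP response element TGACGTCA and its half-site TGACG, which lies inside the whole element, for the Egr site GCGNGGGCG and for the AP-1 site TGANTCA, all sites of factors that neuronal activity engages. Capitals mark matches, and a window without capitals holds none.
Kcnip2, chr19:45816014-45816313: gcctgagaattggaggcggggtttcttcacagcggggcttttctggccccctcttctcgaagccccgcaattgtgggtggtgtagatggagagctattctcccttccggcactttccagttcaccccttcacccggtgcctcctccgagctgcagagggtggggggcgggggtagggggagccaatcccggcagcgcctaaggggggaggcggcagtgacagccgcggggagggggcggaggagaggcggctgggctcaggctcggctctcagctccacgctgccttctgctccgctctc
Kcnip3, chr2:127522045-127522344: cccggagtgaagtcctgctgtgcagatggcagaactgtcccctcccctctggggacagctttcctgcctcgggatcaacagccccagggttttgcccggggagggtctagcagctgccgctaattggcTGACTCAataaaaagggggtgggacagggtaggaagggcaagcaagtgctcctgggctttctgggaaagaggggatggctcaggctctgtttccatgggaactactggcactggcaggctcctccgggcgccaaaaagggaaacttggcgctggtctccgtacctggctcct
The Kcnip3 window shown held 1 AP-1 match, beginning 122 bases before the start. The other 2 windows of Kcnip3, not shown, and the Kcnip2 window held no match. RefSeq windows were found for 8 of the 9 genes, all but Kcnd1, with 15 windows in all. An AP-1 match stood in 2 of the 15, the other being at a start of Kcnip4, against 7.81% of 32851 mouse windows of the same length. The other motifs stood in 0 of the 15, against 1.79% of all windows for the whole cAMP element, 20.8% for its half-site and 5.55% for the Egr site.

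Kcnip1 and Kcnip4 are long genes. Kcnip1, whose product is known from interneurons, spans 364 kb (ENSMUSG00000053519, chr11:33629339-33993152, minus strand). It stood at 28.9, 31.2, 32.0 and 34.4 CPM in WT and at 36.6, 35.1, 37.3 and 34.7 CPM in HOM, so that every HOM library lay above every WT library. It was the 1 member of 9 without overlap, and 14.1% of all genes tested had none. The log2 fold change was 0.18 (SE 0.07, edgeR adjusted p = 0.151). Of 8 interneuron markers 0 rose and 2 fell, Gad1 and Npy, against 2.47% higher and 2.94% lower of all genes. None of the 8 stood at 0, and their summed level was 835 to 980.3 CPM in WT and 725 to 782 CPM in HOM. The part of interneuron RNA in the level of Kcnip1 was not tested.

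Kcnip4, whose product KChIP4 has a form that slows Kv4 inactivation, spans 1135 kb (ENSMUSG00000029088, chr5:48389502-49524907, minus strand), and exons make up 0.319% of it. It stood at 359, 292, 300.0 and 198 CPM in WT and at 464, 360.1, 308 and 334 CPM in HOM. It had the largest estimate and the widest interval of the 9, at a log2 fold change of 0.35 (SE 0.16, edgeR adjusted p = 0.220). WT replicate 4 was far below the other libraries and HOM replicate 1 far above them. The estimate was 0.21 without the former and 0.23 without the latter. These are the libraries that stood apart in choroid plexus, thalamic and oligodendrocyte markers and in cerebellar markers, and the part of those tissues in the level of Kcnip4 was not tested.

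The auxiliary genes Dpp6 and Dpp10 showed small estimates. Dpp6 (ENSMUSG00000061576, chr5:26817203-27727505, plus strand, 910.3 kb) stood at 338, 319.5, 338 and 331 CPM in WT and at 367, 337, 339 and 356 CPM in HOM. The 2 lowest HOM libraries lay within the WT range or just above it, and the log2 fold change was 0.08 (SE 0.06, edgeR adjusted p = 0.456). Dpp10 (ENSMUSG00000036815, chr1:123321471-124045559, minus strand, 724 kb) stood at 306, 249.9, 303 and 254 CPM in WT and at 314, 289, 283 and 265 CPM in HOM. Its groups overlapped widely (0.05, SE 0.08, adjusted p = 0.779, edgeR). The intervals were 0.967- to 1.1508-fold for Dpp6 and 0.9098- to 1.17-fold for Dpp10. Dpp6 took 54.5% ± 2.18 of the CPM summed over both genes in WT and 54.9% ± 1.68 in HOM (SD, n = 4).

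Levels can be set against each other only per length, and the order depended on which length was used. Per kb of gene span, Kcnip2 led in WT at 5.73 ± 0.380 CPM per kb, followed by Kcnip3 (2.63 ± 0.172), Kcnd1 (0.974 ± 0.0765) and Kcnd3 (0.542 ± 0.0319). Dpp10, Dpp6 and Kcnd2 came next, at 0.385, 0.364 and 0.354 CPM per kb of span, and each overlapped its neighbour over the WT libraries. Kcnip4 (0.253 ± 0.0585) and Kcnip1 (0.0869 ± 0.00620) were the lowest (SD, n = 4). In HOM the order per kb of span was the same except that Kcnd2 and Dpp6, which overlapped, changed places, Dpp10 also overlapped Kcnd2, and Kcnip4 overlapped Dpp6.

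Per kb of merged exon, Kcnip4 led in WT at 79.2 ± 18.3 CPM per kb, followed by Kcnip3 (48.6 ± 3.18), Kcnip2 (39.9 ± 2.65) and Kcnd2 (35.3 ± 2.77), of which the last 2 overlapped. Dpp6 (26.9), Dpp10 (17.6), Kcnd3 (12.5), Kcnip1 (5.10) and Kcnd1 (2.95) followed without overlap. Kcnip4 thus moved from the eighth place to the first with the choice of length. Kcnip1 stayed among the lowest on both scales. In HOM, Kcnip2 stood before Kcnip3 per kb of exon, at 46.1 ± 4.91 against 42.7 ± 2.07 CPM per kb, with overlap (SD, n = 4).

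**Figure D2:**
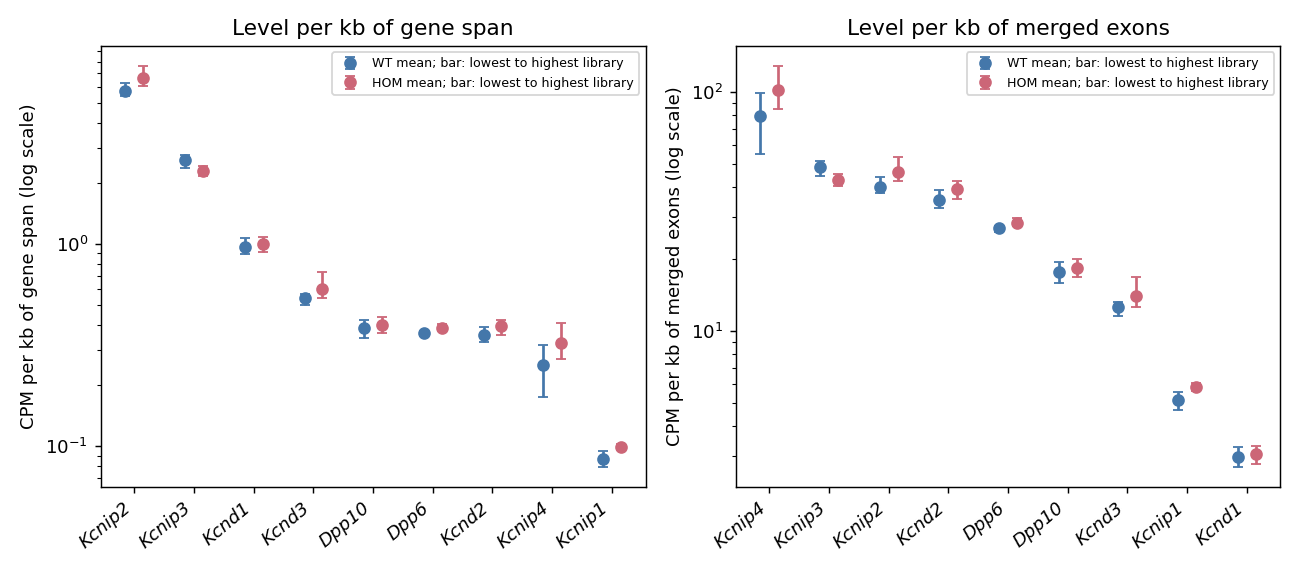
Levels per kb of gene span (left) and per kb of merged exons (right), both on log axes, with points for group means (WT blue, HOM red) and bars from the lowest to the highest of 4 libraries, genes ordered by the WT mean. Kcnip2 leads per kb of span (5.73 CPM per kb in WT) and Kcnip4 per kb of exon (79.2 CPM per kb in WT).

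A ratio of 2 genes within a library does not depend on how libraries are scaled, and the 10 ratios within the 3 families were each tested by exact permutation of the genotypes (70 relabellings, two-sided). The genotypes did not overlap in 3 ratios, each of which involves Kcnip3, whereas 17.7% of all pairs of genes of at least 10 CPM gave ratios without overlap. The ratio of Kcnip2 to Kcnip3 was 0.736, 0.835, 0.790 and 0.869 in WT and 0.993, 0.988, 1.05 and 1.21 in HOM. Kcnip3 reads thus outnumbered those of Kcnip2 in every WT library. In HOM replicates 1 to 3 the reads of the 2 genes stood about level, and in HOM replicate 4 those of Kcnip2 led. Which gene leads depends on length. Per kb of span Kcnip2 led in both groups (5.73 against 2.63 CPM per kb in WT, 6.62 against 2.31 in HOM), and per kb of exon in HOM alone. The log2 ratio was higher in HOM by 0.39 (exact permutation p = 0.0286, adjusted p = 0.0952 over the 10 ratios).

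The ratio of Kcnip1 to Kcnip3 was 0.162 to 0.220 over the WT libraries and 0.227 to 0.261 over the HOM libraries, a difference of 0.37 on the log2 scale. That of Kcnip3 to Kcnip4 was 0.497 to 0.789 in WT and 0.346 to 0.465 in HOM, a difference of -0.55. Both had the same exact permutation p of 0.0286 and adjusted p of 0.0952. That p is the smallest the relabellings allow, and none of the 10 passed after adjustment. Kcnip1 and Kcnip4 are much longer than Kcnip3, and the ratios were not computed with the length and GC trends described below removed. Under that setting the log2 fold change was 0.08 for Kcnip4 (0.35 in the main fit), 0.0996 for Kcnip1 (0.18) and -0.21 for Kcnip3 (-0.19). Of the CPM summed over the 4 Kcnip genes, Kcnip3 took 27.5% ± 1.78 in WT and 21.3% ± 1.22 in HOM, and Kcnip4 45.1% ± 5.73 and 51.04% ± 4.23 (SD, n = 4). The ratios of Kcnd2 to Kcnd3 (difference 0.00 on the log2 scale) and of Dpp6 to Dpp10 (0.02) overlapped between genotypes (exact permutation p = 1 and p = 0.8286).

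**Figure D3:**
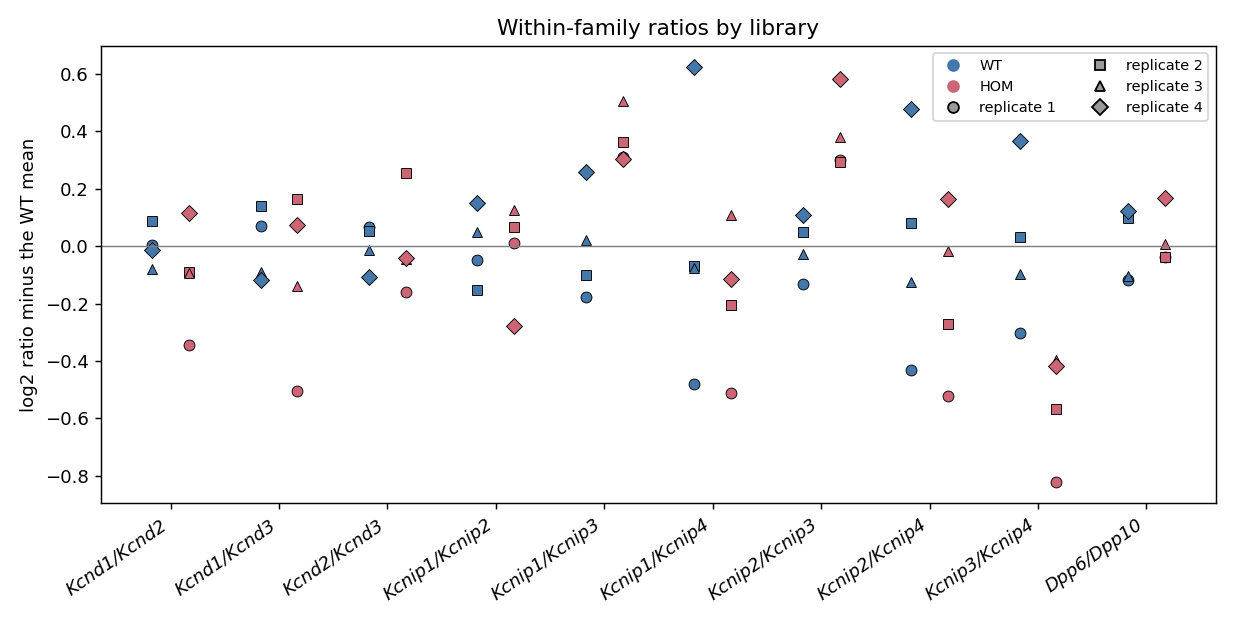
Log2 ratio of 2 genes of a family in each library, after subtraction of the WT mean (y axis), for the 10 pairs, with WT in blue, HOM in red and marker shapes for the replicate number. The 4 HOM points lie outside the WT range at the 3 pairs that hold Kcnip3, which differ by 0.37, 0.39 and -0.55.

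Estimates of the longest members lay within those of other long genes. Among all genes, the median log2 fold change was 0.00, but over the 231 genes of at least 500 kb it was 0.17, and 32 of these were called higher and 2 lower (14.7% called). Kcnd2 (0.15), Dpp10 (0.05), Dpp6 (0.08) and Kcnip4 (0.35) belong to that group, and all 4 estimates lie between the 5th and 95th percentiles of that group, -0.21 and 0.56. With smooth trends of span, exon length and GC content removed from each library, Kcnip4 went to 0.08, Kcnd2 to 0.01, Kcnip1 to 0.0996, Dpp10 to -0.07 and Dpp6 to -0.12, and 6 of the 9 stayed above 0. Kcnd3, also a long gene at 222 kb, stayed at 0.16. The shorter genes Kcnip2 and Kcnip3 also stayed near their values, at 0.18 for Kcnip2 (SE 0.06, edgeR adjusted p = 0.0499) and -0.21 for Kcnip3 (SE 0.06, adjusted p = 0.0275). These 2 passed the threshold there, as did 13% of all genes under that setting. Over the other 19 alternatives neither passed.

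**Figure D4:**
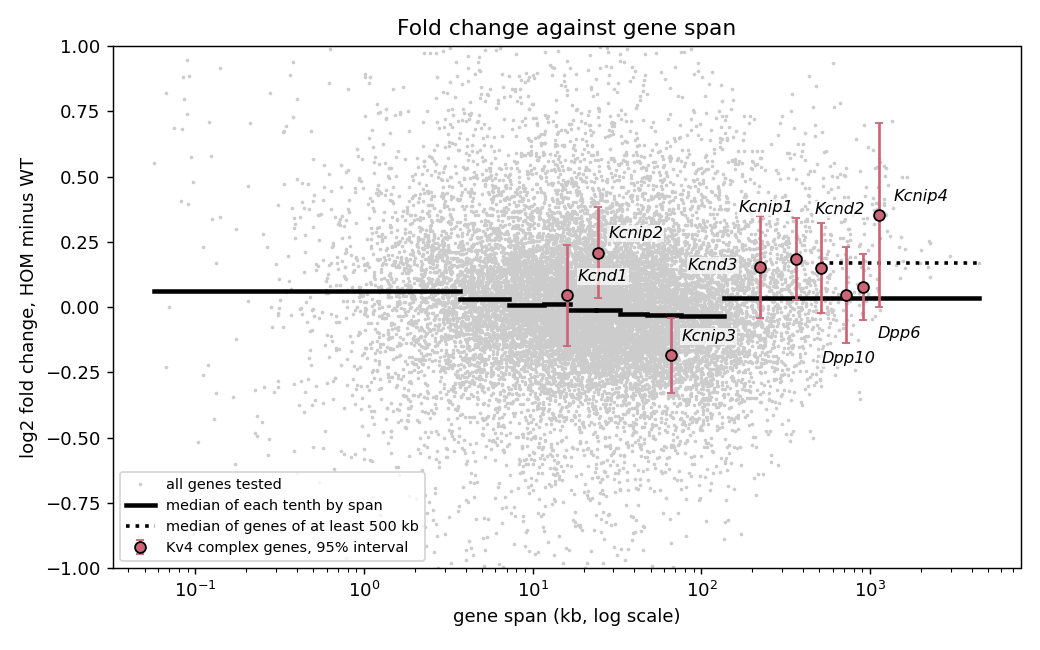
Log2 fold change (HOM minus WT, y axis) against gene span in kb (log x axis) for all genes tested (grey; those beyond 1 in either direction are outside the axis) and for the 9 Kv4 complex genes (red, bars for 95% intervals). Solid lines give the medians of 10 equal classes of genes by span and the dotted line that of genes of at least 500 kb (0.17), near which Kcnd2 (0.15) lies.

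The context came from 6 lists of related genes, with 44 of 48 genes tested. Of these, 1 rose and 5 fell (13.6% against 5.4% of all genes, median log2 fold change -0.12 against 0.00). The lists were chosen with earlier results of these data known, so these shares only describe them. Among other A-type pore genes and the Kv beta subunit genes, which modulate Kv1 channels from the cytoplasm, none of 6 passed, although all 6 estimates were below 0 (median -0.18). Kcnab3, a beta subunit gene, stood at 49.3 ± 4.76 CPM in WT and at 40.7 ± 4.25 CPM in HOM (SD, n = 4), with an edgeR adjusted p of 0.0945 at a log2 fold change of -0.28. An unadjusted p under 0.05 in edgeR was found for 4 of these 6, against 24 of the 44 related genes and 22.9% of all genes. In the Kv4 complex 1 of 9 estimates was below 0, and the difference between the lists was not tested.

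Of 12 further Kv4 partners tested, the T-type calcium channel gene Cacna1g rose from 139 ± 9.28 to 169.95 ± 8.70 CPM (SD, n = 4), a log2 fold change of 0.29 (SE 0.07, edgeR adjusted p = 0.0318). Channels of the T-type family couple to KChIP3 and Kv4 in some neurons. The other 11 partners did not pass. Among them were the T-type genes Cacna1h (0.28, SE 0.08, edgeR adjusted p = 0.0585) and Cacna1i (-0.05, SE 0.07, edgeR adjusted p = 0.750). Kcne2 (4.02 ± 4.70 CPM in WT, 0.730 ± 0.406 in HOM), which is also a choroid plexus marker, was another. Leaving out WT replicate 1, 3 or 4 or HOM replicate 1 or 3 ended the call of Cacna1g, as did the replicate block (0.29, adjusted p = 0.0715) and a choroid plexus covariate (0.29, adjusted p = 0.289), in edgeR fits that gave about the same estimate as without them. The covariate itself differed between genotypes, and with it the SE of Cacna1g rose to 0.11. The block called 2.09% of all genes. Dropping 1 library also changed how many genes passed in all, 940 in the main fit. That total fell to 527, 181 and 482 on removal of WT libraries 1, 3 and 4. On removal of HOM libraries 1, 3 and 4 it fell to 212, 180 and 552. It was 957 and 1187 on removal of WT library 2 and of HOM library 2. A call lost with the block, the covariate or a dropped library, for any gene, cannot be told from a loss of precision. Of 10 kinase and phosphatase genes that act on Kv4, Ppp3r1, the regulatory subunit gene of calcineurin, fell from 92.6 ± 4.90 to 68.7 ± 5.67 CPM (SD, n = 4; adjusted p = 0.00993, edgeR). Its call survived the removal of any 1 library, but not the choroid plexus covariate, where the log2 fold change was -0.51 against -0.43 (edgeR adjusted p = 0.0969) and 39 genes passed in all.

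The neuronal calcium sensors are EF-hand relatives of the KChIPs, and 2 of 6 fell: Vsnl1, the gene of visinin-like protein, from 626 ± 51.1 to 497 ± 29.8 CPM and Ncald, the gene of neurocalcin delta, from 408 ± 20.6 to 331 ± 9.17 CPM (SD, n = 4; edgeR adjusted p = 0.0263 and 0.0186). Vsnl1 no longer passed when any 1 of 5 libraries was left out (WT replicate 1 or 3, HOM replicate 1, 3 or 4) and Ncald without WT replicate 3 or HOM replicate 1 or 3, and neither passed with the replicate block or the choroid plexus covariate. With that covariate the log2 fold changes were -0.50 for Vsnl1 (-0.33 without it) and -0.36 for Ncald (-0.30 without it). The enzymes related to DPP6 and DPP10 gave no call among 6, with Dpp8 (-0.47, SE 0.15, adjusted p = 0.0911) and Prep (-0.17, SE 0.07) lowest in p. Of 5 genes reported as targets of the repressor DREAM, the activity-induced Fos (39.4 ± 8.94 to 10.7 ± 6.88 CPM, edgeR adjusted p = 0.0149) and its relative Fosl2 (48.2 ± 6.99 to 23.0 ± 3.07 CPM, adjusted p = 8.72e-04) fell (SD, n = 4), while Pdyn, the prodynorphin gene (0.17, SE 0.0997), Slc8a3 (0.18, SE 0.08) and Crem (0.08, SE 0.08) did not pass. Fos no longer passed without WT replicate 3 or HOM replicate 3, with robust fitting or with the choroid plexus covariate (-1.68 against -1.88), while Fosl2 passed in all 20 alternatives.

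Over the 8 libraries, the profiles closest to that of Kcnip3 among 9971 protein-coding genes of at least 10 CPM were those of Cacng2, Gls2 and Pdgfrb, with root mean square differences of 0.0342, 0.0349 and 0.0364 in mean-centred log2 CPM. Those closest to Kcnip2 were Dbn1 (0.0377), Cep131 (0.0387) and Tmem161a (0.0397). None of these 6 genes passed the test between genotypes.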

How the data were processed

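RNA-seq of 8 mouse samples was used. Per the labels, total RNA was purified on columns for a stranded paired-end protocol. The deposited values are raw counts, whole numbers of reads for each Ensembl gene. The tools named in the submitters' processing notes are FastQC (0.11.3), STAR, featureCounts and edgeR, on GRCm38; other versions, annotation, feature type and strand setting stay not given in the sources used here. Names and positions came from GENCODE M21, which held 54409 of 54446 identifiers.

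The counts were fitted for all genes with edgeR 4.0.16 in R 4.3.3 (TMM scaling, filterByExpr at its defaults, quasi-likelihood F test), and p-values were adjusted by the Benjamini-Hochberg method over 17395 genes, with a threshold of 0.05. The biological coefficient of variation was 0.117. Log2 CPM used a prior count of 2. Intervals are 95% and not adjusted. The fitting was tested on simulated data. All pairs of libraries of the same genotype differed by more than sampling noise (chi-square per degree of freedom of at least 7.09). No library thus repeats another, and each was entered as 1 sample. This check cannot show whether the samples are separate mice. Named genes are the 9 members, Scn2a, coding genes that overlap members, list genes that passed or the 2 of smallest p in a list with none, and the 3 nearest profiles of the 2 members of smallest p; Kcnd3os, Kcne2, Gad1, Npy, Pdyn, Crem and Slc8a3 were added after their values were seen, and 1 gene that the rule selects is not reported here. Alternatives were DESeq2 1.42.0, limma-voom (limma 3.58.1), robust fitting, other scalings and filters, a replicate block, left-out libraries, a choroid plexus covariate and removal of length and GC trends with mgcv 1.9.3. The members, lists and alternatives were chosen with earlier results of these data known.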

Additional observations from a re-analysis of the deposited data

How the results depend on the processing

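With each library left out in turn, 0 of the 9 genes were called. The log2 fold changes then ranged from 0.00349 to 0.0955 for Kcnd1, 0.11 to 0.21 for Kcnd2, 0.06 to 0.22 for Kcnd3, 0.14 to 0.23 for Kcnip1, 0.15 to 0.26 for Kcnip2, -0.23 to -0.15 for Kcnip3, 0.21 to 0.48 for Kcnip4, 0.06 to 0.11 for Dpp6 and -0.00113 (without WT replicate 2) to 0.10 for Dpp10. Signs also turned for Kcnd1, to -0.0194 with both libraries numbered 4 left out and to -0.0953 with the choroid plexus covariate, and for Dpp6 (-0.12) and Dpp10 (-0.0718) with length and GC trends removed; the cause was not tested. With those trends removed 2 members were called, Kcnip2 (0.18) and Kcnip3 (-0.21). Scn2a kept its call in every alternative. Ratios without overlap numbered 3 with prior counts of 0.5 and 5, and 3 to 4 with 1 library left out, which can only keep or raise the number. The order of levels depended on the length, and 1 of 9 genes kept its place per kb of exon. The related genes called were 6, against 14 with DESeq2, 17 with trends removed, 3 with the replicate block, 1 with the covariate and 2 to 10 with 1 library left out. All genes called were 940, against 1873 with DESeq2, 2254 with trends removed, 364 with the replicate block, 335 with both libraries numbered 4 left out, 39 with the covariate and 180 to 1187 with 1 library left out.

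Same-numbered samples did not deviate together (correlations of 0.0473, -0.196, -0.00701 and 0.0275 for numbers 1 to 4), and no sample correlated best with its own number. No pairing by number was thus seen, but correlations of 4 pairs over all genes cannot exclude one. With the replicate block 0 of the 9 genes were called, and the paired differences of the 3 ratios with Kcnip3 gave an exact sign-flip p of 0.125, the smallest that 4 pairs allow. Depth was least for Kcnd1, at 422 to 635 reads per library.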
